A study of Mus musculus with 8 samples.

Results

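The 9 genes described here encode proteins of the tight junction, the seal between neighbouring epithelial cells. They are 6 claudins (*Cldn2*, *Cldn3*, *Cldn4*, *Cldn7*, *Cldn15* and *Cldn23*), *Ocln*, *F11r* and *Tjp1*, and they were taken by symbol as a list of barrier genes. All 9 were measured in both tissues of the study, among 11554 genes listed for small intestinal crypts and 12701 listed for villi, of which 11227 are in both lists. In crypts none of the 9 differed between genotypes at the study's threshold, which only 0.182% of all genes passed. Along the crypt to villus axis *Cldn2* stood 6.97-fold lower in villi than in crypts in reads scaled to the same library total. Its log2 difference on that scale was -2.80, against a median of -0.76 over all genes. There *Cldn15*, *Cldn7* and *Cldn3* overlapped between the tissues. Scaled by the median of ratios, the log2 difference of *Cldn2* was -2.02. On this second scale *Cldn15* and *Cldn7* were higher in every villus library than in any crypt library. After a correction of the first scale for transcript length, the log2 differences of *Cldn15* and *Cldn7* were -0.19 and -0.29.

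Tight junctions form a belt at the apical end of the lateral membrane. Claudins are small membrane proteins whose extracellular loops meet across the cell gap: some of them, such as claudin-2 and claudin-15, form pores for cations and water, while others tighten the seal. Occludin and the immunoglobulin-like protein JAM-A, the product of *F11r*, share the belt with the claudins, and ZO-1, the product of *Tjp1*, is the scaffold that links these membrane proteins to actin. In the small intestine claudin-2 and claudin-15 are known for the sodium that leaks back into the lumen and feeds sodium-coupled glucose uptake.

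Bulk RNA-seq was done on epithelium of crypts, which hold stem and Paneth cells, and of villi, which hold absorptive enterocytes, from Ctrl and Gli1-Ptgs cKO mice. In Gli1-Ptgs cKO mice, called cKO here, floxed *Ptgs1* (encoding COX1) and *Ptgs2* (encoding COX2) are removed by Gli1-CreERT2, a tamoxifen-dependent Cre in Gli1+ mesenchymal cells, so the deletion is aimed at the mesenchyme and not at the epithelium that was sequenced. Mice were C57BL/6, tamoxifen was injected intraperitoneally at 100 mg/kg on 5 days, and neither the age of the mice nor the time from tamoxifen to RNA isolation is given in the sources used here. The labels call the Ctrl genotype WT and describe Gli1-CreERT2 with a Rosa26-tdTomato reporter, whereas a figure legend of the study describes floxed animals without Cre, and this was not resolved. Each genotype had 2 libraries per tissue, which the study calls biological replicates, and the labels do not name the animals.

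The columns of the 2 Ctrl villus libraries hold identical values and were counted as 1 library, so 7 distinct libraries remain and no test was run on villi. Reads on listed genes came to between 16853017 and 21121714 per crypt library and between 13477600 and 15751024 per villus library, and a tight junction gene had between 241 reads (*Cldn23*) and 17759 reads (*Cldn7*) in a library. Tissue labels matched the markers, given in CPM, a gene's reads scaled to the same library total over genes listed for both tissues: 5 stem cell genes summed to between 3706 and 4466 CPM in crypts against 149 to 325 in villi, 6 mesenchymal genes to between 386 and 737 in crypts, the 5 of them listed for villi to between 77.7 and 143 there, and 6 enterocyte genes to between 2313 and 3623 in crypts against 14354 to 18492 in villi. *Ptgs1* had 365 and 164 normalized counts in Ctrl crypts and 178 and 199 in cKO crypts, which overlap, and the tables list neither *Ptgs2* nor *Gli1*. One library stood apart by transcript length: in cKO crypt replicate 1 the difference from the other crypt libraries decreased as the longest annotated transcript got longer (Spearman correlation -0.673 across genes, which are not independent replicates), against 0.244 to 0.574 in the other 3 crypt libraries. In villi the difference of the cKO libraries from Ctrl rose with length, with correlations of 0.543 and 0.507. In bulk samples fewer cells of a type and less RNA per cell cannot be told apart.

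The sequences just upstream of 3 of the genes are shown because of their place on the axis described next: over all libraries *Cldn2* was the lowest of the 9 in villi against crypts and *Cldn4* the highest, and *Cldn15* forms cation pores as *Cldn2* does but did not share its difference. Each is the 250 bases before the RefSeq start on GRCm38.p6, written 5′ to 3′ on the gene's strand, with *Cldn2* at chrX:139800558-139800807 (plus strand), *Cldn15* at chr5:136967619-136967868 (plus strand) and *Cldn4* at chr5:134946935-134947184 (minus strand). RefSeq entries were found for 8 of the 9 genes, all except *Cldn23*. Capitals mark matches, on either strand, to 3 of 4 searched motifs: the CDX core TTTAT, the TATA box TATAAA and the GC box GGGCGG; the GATA motif AGATAA had no match in these windows.
Cldn2: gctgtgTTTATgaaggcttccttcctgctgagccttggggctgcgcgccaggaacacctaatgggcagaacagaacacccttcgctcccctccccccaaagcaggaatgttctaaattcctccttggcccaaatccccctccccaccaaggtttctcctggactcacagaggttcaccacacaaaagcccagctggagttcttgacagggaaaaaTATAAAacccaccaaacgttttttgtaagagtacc
Cldn15: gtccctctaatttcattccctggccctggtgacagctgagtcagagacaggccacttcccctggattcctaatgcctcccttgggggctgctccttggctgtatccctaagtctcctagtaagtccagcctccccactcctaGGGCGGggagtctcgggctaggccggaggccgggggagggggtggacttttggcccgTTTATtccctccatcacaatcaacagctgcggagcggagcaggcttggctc
Cldn4: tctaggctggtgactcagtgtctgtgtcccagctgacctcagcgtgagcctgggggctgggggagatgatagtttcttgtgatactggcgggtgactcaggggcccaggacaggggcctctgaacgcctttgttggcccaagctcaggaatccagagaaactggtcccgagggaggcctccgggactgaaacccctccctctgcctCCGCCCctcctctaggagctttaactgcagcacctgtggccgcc
The *Cldn2* window held a TATA box 35 to 30 bases before the start, a motif present in 12.4% of the 32851 RefSeq windows of this length and in none of the other windows found for these genes. It also held a CDX core 244 to 240 bases before the start, and the TATA box itself reads as a second one on the opposite strand. A CDX core lay in 37.3% of all windows, and the *Cldn15* window held one 51 to 47 bases before the start. The *Cldn4* and *Cldn15* windows each held 1 GC box, found in 32.7% of all windows, and the *Cldn2* window held none. GC content was 52% for *Cldn2*, 60.8% for *Cldn15* and 62% for *Cldn4*, against a median of 52.4% over all windows. The matches are letters in a window and were not tested as binding sites.

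To compare crypts with villi, whose tables the authors normalized separately, reads were put on a common scale, as CPM over the 11227 genes listed for both tissues. No test was run across the tables. A gene was counted as separated where all 3 villus libraries lay above, or all below, the 4 crypt libraries and the means of log2(CPM + 1) differed by more than 1. By this rule 38.3% of all genes were lower and 6.93% were higher in villi, and the median over all genes was -0.76, so a tight junction gene is best read against that median. Scaling by the median of ratios instead brought the median of all genes to -0.02, and directions that turn with it are given below. Of the 9 genes, 2 were separated and lower in villi, none was separated and higher, and their median difference was -0.25. Under the median of ratios 1 of the 9 was separated and lower and 1 higher, where 15.8% and 17.2% of all genes were, and the median of the 9 was 0.52. The CPM difference between tissues also ran with transcript length, with a Spearman correlation of -0.733 over the 9 genes. Its median over all genes was -0.05 for the tenth with the shortest transcripts and -1.16 for the tenth with the longest.

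Among the pore-forming claudins, *Cldn2* (ENSMUSG00000047230, chromosome X of GRCm38 from 139800828 to 139811386) had 256 and 260.5 CPM in Ctrl crypts and 198 and 253 CPM in cKO crypts. In villi it had 25.5 CPM in the Ctrl library, with a 95% Poisson interval from 23.0 to 28.3 that covers counting error only, and 37.9 and 39.2 CPM in the cKO libraries. Every crypt library thus held more than every villus library, with no value in between. The means of log2(CPM + 1) differed by -2.80 (mean 242 ± 29.5 CPM in 4 crypt and 34.2 ± 7.55 CPM in 3 villus libraries, SD), and only 2.08% of the 11227 genes were lower than *Cldn2* on this measure. Within Ctrl the difference was 9.78-fold and within cKO 5.68-fold. On this scale the median log2 difference of all genes was also larger in size within Ctrl, -1.06 against -0.56 within cKO. Over all libraries the log2 difference of *Cldn2* was -2.02 under the median of ratios and -2.82 after a correction for transcript length.

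*Cldn15* (ENSMUSG00000001739, chromosome 5 from 136966616 to 136975858) went a different way. It had 401 and 424 CPM in Ctrl crypts, 523 and 382 CPM in cKO crypts, 515 CPM in the Ctrl villus library and 529 and 361 CPM in the cKO villus libraries. The tissues overlapped and the means of log2(CPM + 1) differed by 0.11. Under the median of ratios every villus library lay above every crypt library, by 0.91, and after the length correction the difference was -0.19. The ratio of the pore formers to each other does not depend on the scaling between libraries: per kilobase of transcript, *Cldn15* stood 2.50-fold and 2.61-fold above *Cldn2* in Ctrl crypts and 4.23-fold and 2.41-fold above it in cKO crypts. In villi the same ratio was 32.3 in Ctrl and 22.3 and 14.8 in cKO. All 3 villus libraries thus lay above all 4 crypt libraries in this ratio, and after the length correction the log2 differences of both genes between tissues still lay 2.63 apart, against 2.91 without it.

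Of the other claudins, *Cldn4*, which lines many tighter epithelia, was the highest of the 9 genes in villi against crypts over all libraries, a rank that rests on the cKO villi: within Ctrl its difference of 0.24 was below those of *Cldn3* (0.46), *Cldn7* (0.45) and *Cldn15* (0.32). It had 14.9 and 19.4 CPM in Ctrl crypts, 24.9 and 17.5 CPM in cKO crypts, 20.2 CPM in the Ctrl villus library and 34.2 and 36.0 CPM in the cKO villus libraries. The Ctrl villus library lay inside the range of the crypts and both cKO villus libraries lay above it, so the tissues overlapped, with a difference of 0.61. Under the median of ratios *Cldn4* was separated, by 1.38, and after the length correction the difference was 0.28.

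*Cldn7*, an abundant claudin of the intestinal lateral membrane, had 559 and 556 CPM in Ctrl crypts, 910.2 and 494 CPM in cKO crypts, 764 CPM in the Ctrl villus library and 678 and 642 CPM in the cKO villus libraries. *Cldn3*, a sealing claudin, had 299 and 308 CPM in Ctrl crypts, 516 and 311 CPM in cKO crypts, 419 CPM in the Ctrl villus library and 292 and 236 CPM in the cKO villus libraries. In both genes cKO crypt replicate 1 was the highest of all libraries, and crypts and villi overlapped in CPM. *Cldn23*, a claudin known from differentiated gut epithelium, had between 22.0 and 32.0 CPM in the 4 crypt libraries and between 17.95 and 27.8 CPM in the 3 villus libraries, which also overlap. The differences were 0.18 for *Cldn7*, -0.18 for *Cldn3* and -0.25 for *Cldn23*. Under the median of ratios they were 0.98, 0.62 and 0.52, and every villus library lay above every crypt library for *Cldn7*. After the length correction they were -0.29, -0.69 and -0.56, against a median of -0.73 over all genes. For *Cldn3* the sign in CPM turned with the genotype, at 0.46 within Ctrl and -0.61 within cKO. The signs of *Cldn7* (0.45 and -0.02) and *Cldn15* (0.32 and -0.03) turned as well, to values near 0 within cKO. The median of all genes also moved, from -1.06 within Ctrl to -0.56 within cKO. Read against it, *Cldn7* and *Cldn15* lay above the median in both genotypes. *Cldn3* lay above it within Ctrl and slightly below it within cKO. Without cKO crypt replicate 1 the difference of *Cldn3* between tissues was 0.005. These differences between genotypes were not tested.

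*Ocln* (ENSMUSG00000021638, chromosome 13 from 100496507 to 100552718), the gene of occludin, was the second gene separated between tissues. It had 154 and 176 CPM in Ctrl crypts and 147 and 171 CPM in cKO crypts. Villi held 39.7 CPM in Ctrl and 78.9 and 60.9 CPM in cKO, so each villus library was below each crypt library, by -1.47 in the means of log2(CPM + 1). Under the median of ratios every villus library stayed below every crypt library, but the difference of -0.68 no longer passed 1.

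*F11r*, whose product JAM-A also helps polarity proteins to the junction, had 173 and 172 CPM in Ctrl crypts, 166 and 160.5 CPM in cKO crypts, 81.7 CPM in the Ctrl villus library and 149 and 121 CPM in the cKO villus libraries. All villus libraries were lower on this scale, by -0.55, but under the median of ratios all were higher, by 0.24, so its direction depends on the scaling. *Tjp1*, the ZO-1 scaffold, had 108 and 114 CPM in Ctrl crypts, 38.1 and 140.5 CPM in cKO crypts, 32.3 CPM in the Ctrl villus library and 91.0 and 79.0 CPM in the cKO villus libraries. The cKO crypts alone spanned nearly the whole range of all 7 libraries, and the sign of the difference between tissues went from -1.74 within Ctrl to 0.21 within cKO. Over all libraries it was -0.54, and 0.25 under the median of ratios. With the Ctrl libraries alone 4 of the 9 genes were lower in villi by more than 1, *Cldn2*, *Ocln*, *Tjp1* and *F11r*, where 51.6% of all genes were and the median of all genes was -1.06.

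**Figure D1:**
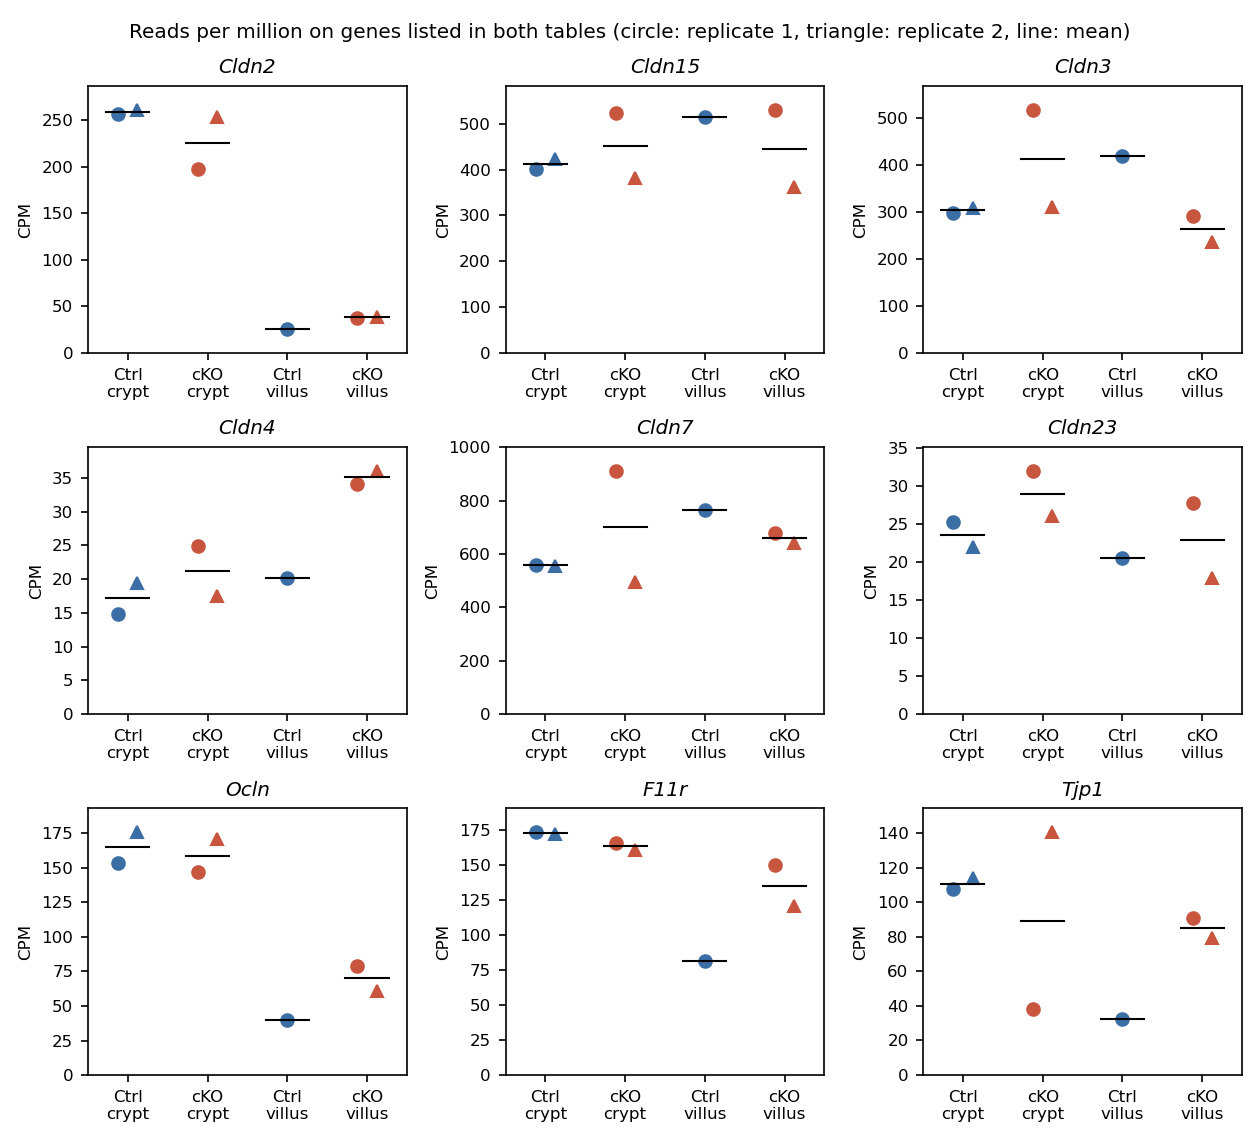
CPM over the genes listed in both tables (vertical axis, from 0) of the 9 tight junction genes in each of the 7 distinct libraries, with circles for replicate 1, triangles for replicate 2, blue for Ctrl, red for cKO and lines for group means. *Cldn2* held between 198 and 260.5 in crypts and between 25.5 and 39.2 in villi, whereas *Cldn15* overlapped between the tissues on this scale.

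**Figure D2:**
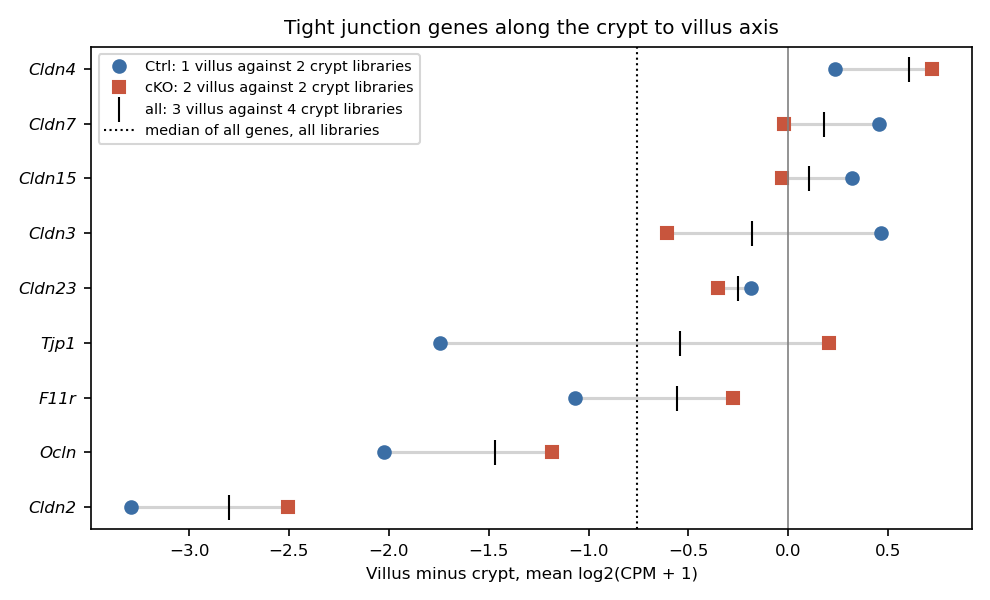
Difference between villi and crypts in mean log2(CPM + 1) (horizontal axis) for each gene, for Ctrl libraries (circles), cKO libraries (squares) and all libraries (vertical ticks), with the median of all genes at -0.76 as a dotted line. *Cldn2* lay at -2.80 and *Cldn4* at 0.61 over all libraries, and the Ctrl and cKO values of *Tjp1* lay on opposite sides of 0, at -1.74 and 0.21. The median of all genes was -1.06 within Ctrl and -0.56 within cKO.

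Levels of different genes were compared per kilobase of the longest annotated transcript, scaled to the same sum in each library. In Ctrl crypts the order was *Cldn7* (916 ± 10.2, SD, n = 2), *Cldn3* (529 ± 19.6), *Cldn15* (476 ± 26.2), *Cldn2* (186 ± 5.01), *F11r* (150.2 ± 1.28), *Ocln* (89.4 ± 9.74), *Tjp1* (34.5 ± 1.89), *Cldn23* (28.1 ± 2.32) and *Cldn4* (20.8 ± 4.21). No neighbours in that order overlapped between the 2 libraries. In cKO crypts *Cldn2* overlapped with *F11r*, *Cldn23* with *Tjp1*, and *Tjp1*, at 9.83 in replicate 1 and 44.1 in replicate 2, also with *Cldn4*. In the Ctrl villus library *Cldn7* (956), *Cldn3* (555) and *Cldn15* (452) again led, followed at a distance by *F11r* (54.1), and *Cldn2* (14.0) came next to last, above *Tjp1* (7.66). In cKO villi *Cldn15* (443 ± 136) and *Cldn3* (396 ± 75.8) overlapped, as did the pairs *Cldn4* and *Ocln*, *Cldn2* and *Cldn23*, and *Cldn23* and *Tjp1*.

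The 6 claudins together summed to 2112 and 2201 on this scale in Ctrl crypts, 2658 and 2044 in cKO crypts, 2013 in Ctrl villi and 2063 and 1646 in cKO villi, which overlap between tissues and genotypes. *Cldn7* made up between 40.0% and 46.6% of this sum in crypts and between 47.5% and 53.4% in villi, *Cldn3* between 20.8% and 28.04% over all libraries, and *Cldn15* between 18.8% and 26.1%. *Cldn2* supplied 8.65% and 8.63% of it in Ctrl crypts and 4.44% and 8.99% in cKO crypts, but 0.695% in Ctrl villi and 1.17% and 1.43% in cKO villi. The shares of *Cldn2* and *Cldn7* thus did not overlap between tissues, lower in villi for *Cldn2* and higher for *Cldn7*, while the summed level did overlap. Shares in a library add up to a fixed total, so a lower share of *Cldn2* by itself raises those of the other claudins. The level of *Cldn7* per kilobase did overlap, at 818 to 1239 in crypts and 878 to 984 in villi.

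**Figure D3:**
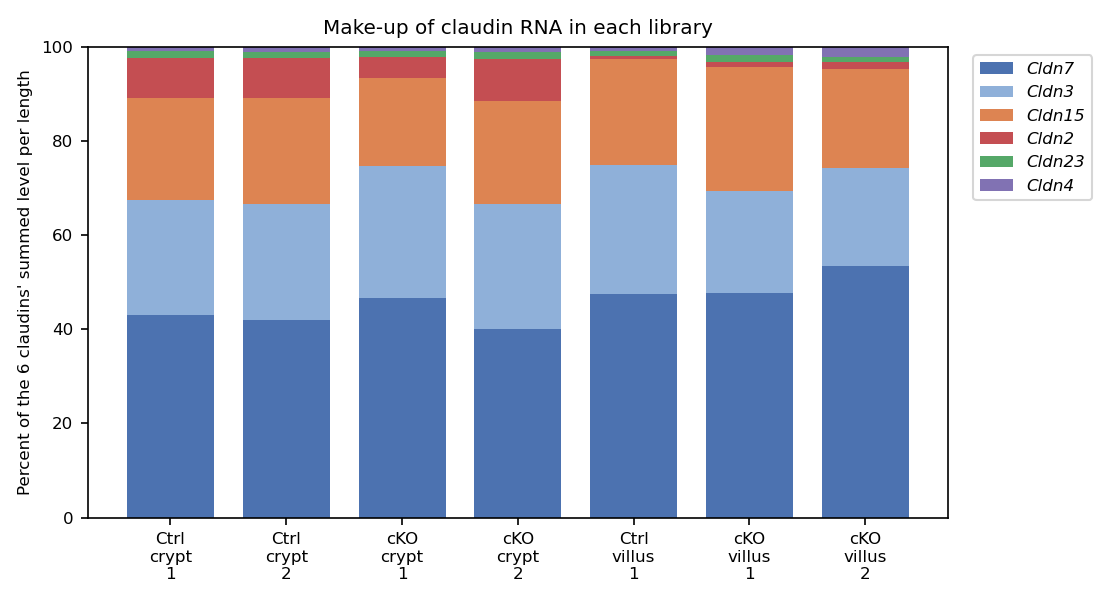
Share of each claudin (colours, vertical axis in percent) in the summed level per length of the 6 claudins, for each of the 7 distinct libraries. *Cldn2*, in dark red, held between 4.44% and 8.99% in crypts and between 0.695% and 1.43% in villi, and *Cldn7*, in dark blue, held between 40.0% and 46.6% in crypts and between 47.5% and 53.4% in villi. Shares in a library add up to a fixed total, and the level of *Cldn7* per length overlapped between tissues.

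To see whether loss of mesenchymal COX went with altered barrier genes, cKO crypts were compared with Ctrl crypts in normalized counts, the authors' gene counts divided by a size factor for each library. Differences are on the scale of log2(normalized count + 1), were tested with limma-trend over all 11554 genes, and were called at the study's threshold, an unadjusted p under 0.01 with an absolute log2 fold change over 1. None of the 9 genes passed, where 0.182% of all genes did, and none had an unadjusted p under 0.05 by limma, edgeR or DESeq2, where 0.632% of all genes did by limma. At a Benjamini-Hochberg adjusted p under 0.05 limma called no gene at all, with 73 at an unadjusted p under 0.05, edgeR none, with 108, and DESeq2 11, with 227. Their median log2 fold change was 0.19, against -0.01 over all genes. With 2 libraries in each group, the smallest two-sided p of an exact permutation test is 0.333.

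*Cldn3* came nearest. It had 5469.6 and 5847.6 normalized counts in Ctrl crypts and 10572 and 5847.7 in cKO crypts. Replicate 1 of cKO stood far above the other 3 libraries, while replicate 2 equalled the higher Ctrl library to within 1 normalized count. The log2 fold change was 0.48 ± 0.34 (SE), with an adjusted p of 1.00 by limma-trend.

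*Cldn7* had 10236 and 10550.1 normalized counts in Ctrl and 18632 and 9284 in cKO, with a log2 fold change of 0.34 ± 0.38. *Cldn4* had 273 and 369 in Ctrl and 509 and 329.6 in cKO, with 0.37 ± 0.35. In both genes cKO replicate 1 was the highest library and replicate 2 lay within or below the Ctrl values. *Cldn23* had 463 and 418 in Ctrl and 655 and 489 in cKO, with 0.36 ± 0.29. Its groups did not overlap, as those of *Cldn3* by their small margin did not, so 2 of the 9 genes had both cKO crypts above both Ctrl crypts, where 9.73% of all genes did, and none had both below, where 11.3% did.

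The pore formers differed little. *Cldn15* had 7339 and 8048.5 normalized counts in Ctrl and 10713 and 7174 in cKO, with a log2 fold change of 0.19 ± 0.30, and its values overlapped. *Cldn2* had 4692 and 4945 in Ctrl and 4049.7 and 4756 in cKO, with -0.13 ± 0.24. Here cKO replicate 1 was the lowest library rather than the highest. *Ocln* (0.02 ± 0.24) and *F11r* (-0.01 ± 0.23) differed least, with values of *Ocln* between 2819.6 and 3338 and of *F11r* between 3016 and 3392 over all 4 crypt libraries.

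*Tjp1* (ENSMUSG00000030516, chromosome 7 from 65296165 to 65527781) had 1969.7 and 2159.5 normalized counts in Ctrl crypts and 781 and 2641 in cKO crypts, the widest spread of the 9 genes. The cKO libraries lay on either side of Ctrl, at -1.40 and 0.36 from its mean, and the log2 fold change was -0.52 ± 0.53 (adjusted p = 1.00 by limma-trend). Without cKO replicate 1 it was 0.36, and without cKO replicate 2 it was -1.40 and passed the study's threshold. With either left out, the lone cKO library is assumed to vary as Ctrl does. Without cKO replicate 1 the fold changes of the 9 genes lay between -0.16 for *Cldn7* and 0.36 for *Tjp1* and none had an unadjusted p under 0.05, whereas without cKO replicate 2 there were 6 such genes among the 9 and 4000 among all 11554.

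The differences of cKO crypt replicate 1 followed transcript length closely over the 9 genes. They ran from 0.90 for *Cldn3*, whose transcript of 1259 bases is the shortest, and 0.84 for *Cldn7* (1335 bases), through -0.03 for *Ocln* (4052 bases), to -1.40 for *Tjp1*, whose transcript of 7049 bases is the longest. The Spearman correlation with length was -0.983 over the 9 genes, and the same trend ran through all genes in that library: the median difference was 0.84 for the tenth of genes with the shortest transcripts and -0.65 for the tenth with the longest. In cKO crypt replicate 2 the correlation over the 9 genes was 0.417. After the length correction the log2 fold changes shrank to 0.20 for *Cldn3*, 0.08 for *Cldn7* and -0.30 for *Tjp1*. The part of length in these differences was not tested beyond that correction.

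In villi, the 1 distinct Ctrl library was set beside the 2 cKO libraries. A gene was counted as past the fold where both cKO libraries lay on the same side of Ctrl and the log2 fold of their mean was over 1 in size, which held for 13.4% of all genes upward and 9.4% downward. By this rule 1 of the 9 genes, *Cldn3*, was lower and none was higher. Both cKO libraries lay above Ctrl in 5 of the 9 genes, against 43.7% of all genes, and below it in 4, against 44.2%. The median of the 9 genes was 0.16, against -0.01 over all genes.

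*Cldn3* (ENSMUSG00000070473, chromosome 5 from 134986214 to 134987472, a single exon) had 7048 normalized counts in Ctrl villi and 3507 and 3064 in cKO villi, which is 2.15-fold lower. *Cldn7* had 12867 in Ctrl and 8131 and 8325 in cKO, a log2 difference of -0.65. *Cldn15* had 8665 in Ctrl and 6352 and 4687 in cKO, a log2 difference of -0.67. These 3 claudins were thus lower in both cKO villus libraries in normalized counts, but not all were so on other scales: in CPM, *Cldn15* had 515 in Ctrl and 529 in cKO replicate 1, and per kilobase at the same sum cKO replicate 1 was above Ctrl for *Cldn7* (984 against 956) and *Cldn15* (539 against 452). *Cldn23* had 346 in Ctrl and 334 and 233 in cKO, with the first of these close to Ctrl. *Cldn4*, which neighbours *Cldn3* on chromosome 5 on the opposite strand (134945119 to 134946934), had 341 in Ctrl and 409.8 and 467 in cKO, a log2 difference of 0.36.

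*Tjp1* had 544 normalized counts in Ctrl villi and 1092 and 1025 in cKO villi, 1.94-fold higher and the largest of the 9 upward differences on this scale, though not after the length correction given below. *Ocln* had 668 in Ctrl and 947 and 790.1 in cKO. *F11r* had 1375 in Ctrl and 1793 and 1565 in cKO. *Cldn2* had 429.8 in Ctrl and 455 and 508 in cKO. All 4 genes were higher in both cKO libraries, by log2 differences of 0.96, 0.37, 0.28 and 0.16 in that order.

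With 1 Ctrl library, a difference in villi cannot be told apart from that library's own deviation. The villus differences also ran with transcript length, in the direction opposite to cKO crypt replicate 1: over the 9 genes the Spearman correlations were 0.850 and 0.683 for the 2 cKO libraries, and over all genes the medians were -0.82 and -0.74 for the tenth with the shortest transcripts and 0.93 and 0.83 for the tenth with the longest. After the length correction the difference was -0.51 for *Cldn3*, -0.08 for *Cldn7* and 0.29 for *Tjp1*, against 0.49 for *F11r* and 0.76 for *Cldn4*. Scaling by library size alone moved the median of all villus genes to 0.42; there *Cldn3* lay at -0.67, *Tjp1* passed the fold at 1.39, and *Cldn23* turned to 0.12, as it turned to 0.08 after the length correction.

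**Figure D4:**
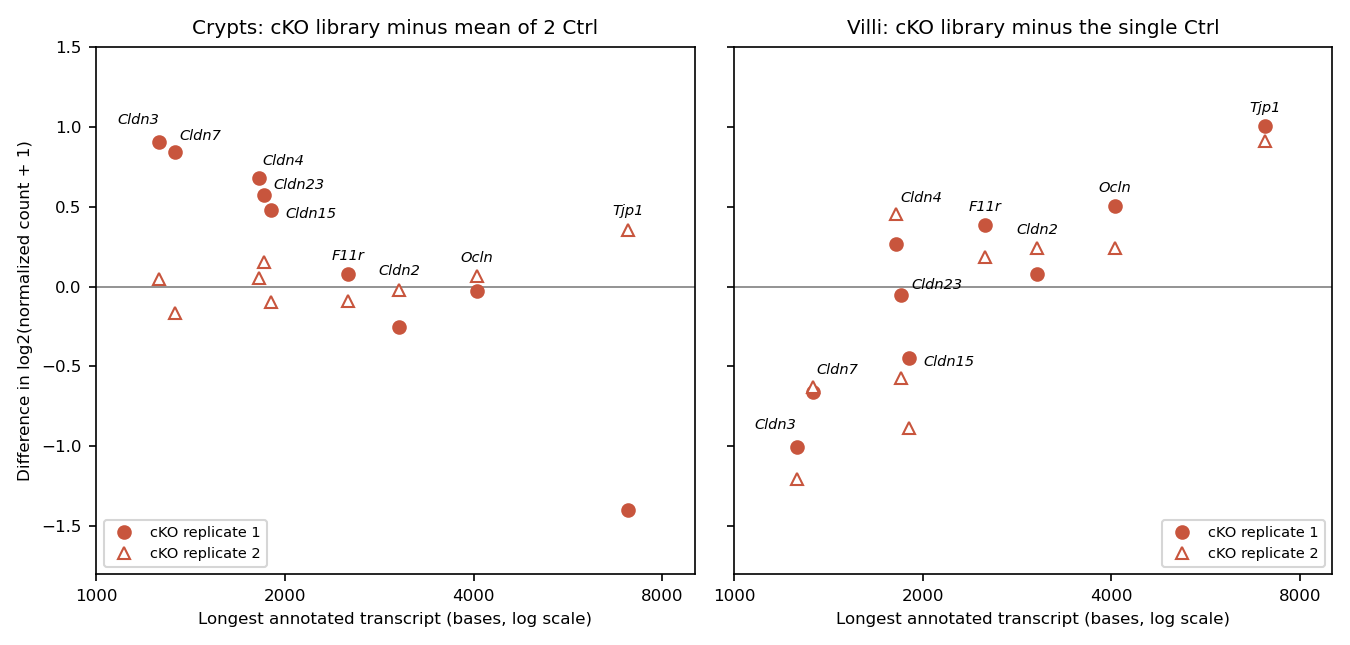
Difference of each cKO library from Ctrl in log2(normalized count + 1) (vertical axis) against the longest annotated transcript in bases (log axis) for the 9 genes, in crypts (left, against the mean of 2 Ctrl libraries) and villi (right, against the single Ctrl library), with filled circles for replicate 1 and open triangles for replicate 2. In crypts replicate 1 ran from 0.90 for *Cldn3* down to -1.40 for *Tjp1*; in villi both replicates ran upward, from about -1.01 and -1.20 for *Cldn3* to 1.00 and 0.91 for *Tjp1*.

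Other junction genes were followed by lists. Of 17 further claudins only 3 are listed for crypts and 1 for villi, and *Cldn18*, a claudin typical of stomach and lung epithelium, was the 1 of them past the study's threshold. *Cldn18* had 522 and 725 normalized counts in Ctrl crypts and 1729 and 1368 in cKO crypts, so both cKO libraries were above both Ctrl libraries. It was higher in cKO by 1.32 ± 0.29 on the log2 scale (adjusted p = 1.00 by limma-trend), and by 1.39 after the length correction. Without Ctrl crypt replicate 1 it was 1.08 and no longer passed, and without cKO crypt replicate 1 it was 1.15 and passed. The gastric marker list that includes *Cldn18* passed in 5 of 5 genes, against 0.182% of all genes, but its other 4 genes are ones the study picked out in these crypts, so the list is not independent evidence of its direction. Its sum was 1155 and 1457 CPM in Ctrl crypts and 4826 and 2923 CPM in cKO crypts; whether gastric-type cells account for the *Cldn18* reads was not tested. The other claudins listed for crypts were *Cldn8*, a sealing claudin (-0.70 ± 0.38), and *Cldn12* (0.02 ± 0.23).

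No gene of the other 4 lists passed the threshold in crypts, where 0.182% of all genes did. The counts of groups that do not overlap in these lists stand beside 9.73% of all genes with both cKO crypts above Ctrl and 11.3% with both below. Of 8 measured membrane partners, 3 had both cKO crypts above Ctrl and none below, with a median of 0.18, from *Ildr1* of tricellular junctions (0.92 ± 0.46) to the virus receptor *Cxadr* (-0.07 ± 0.23). *Crb3* is among the 3 above Ctrl by a small margin, with 627 normalized counts in cKO replicate 2 against 625 in Ctrl replicate 1. Of 21 plaque and polarity genes 2 had both cKO crypts below Ctrl, with a median of -0.13 and a range from the PAR complex gene *Pard6a* (0.73 ± 0.57) to *Amotl1* (-0.70 ± 0.65). Among 16 genes of adherens junctions and desmosomes, which lie below the tight junction, 4 had both cKO crypts below Ctrl and 1 above, with a median of -0.14, from *Nectin2* (0.57 ± 0.28) to the desmosomal cadherin *Dsg2* (-0.39 ± 0.39). Of 10 regulators of the junction, 1 lay above and 1 below, with a median of 0.05, from the protease inhibitor *Spint2* (0.35 ± 0.45) to the kinase *Rock2* (-0.31 ± 0.30).

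Between tissues, the only further claudin listed for both was *Cldn12*, with 72.9 to 82.9 CPM in crypts and 15.1 to 28.7 CPM in villi, a difference of -1.84. Of the 8 membrane partners 3 were separated and lower in villi and 1 was higher, the Crumbs polarity gene *Crb3*, which had 31.5 to 61.7 CPM in crypts and 79.9 to 112.6 CPM in villi (1.22). The lowest was *Ildr2*, with at most 1.49 CPM in villi (-2.06). Of 18 plaque and polarity genes 4 were lower and none was higher, with *Cgnl1*, a cingulin-like plaque gene, at -2.67 and at most 1.21 CPM in villi, and the atypical protein kinase C *Prkcz* highest at 0.61. Of 16 adherens junction and desmosome genes 5 were lower and none was higher, led by E-cadherin, *Cdh1*, with 876 to 1191 CPM in crypts and 228 to 441 CPM in villi (-1.70), and with *Pkp3* highest at 0.54. Of 10 regulators 3 were lower, led by *Rock1* (-1.57), and 1 was higher, *Arhgef2*, an activator of RhoA (1.38). In these 4 lists the shares lower lay near or below the 38.3% of all genes, and 6.93% of all genes were separated and higher. Under the median of ratios 1, 4, 0 and 0 genes of the 4 lists, in the same order, were separated and lower and 3, 3, 2 and 2 higher. On that scale 15.8% of all genes were separated and lower and 17.2% higher. *Cldn12*, *Ildr2* and *Cgnl1* stayed separated and lower, while *Cdh1* (-0.90) and *Rock1* (-0.79) did not pass 1 there.

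The genes most like *Cldn2* in pattern over the 7 libraries were *Nutf2*, *Ipo5* and *Trim37*, each with a Pearson correlation of 0.999 of log2(CPM + 1). Such values are common here, since 2518 of the 11227 genes reached a correlation over 0.95 with *Cldn2*, all from the same 7 libraries that fall into 2 tissues. For *Cldn4*, the gene highest of the 9 in villi against crypts over all libraries, the most alike were *Tuft1* (0.952), *LTO1* (0.932) and *Arl14* (0.928), and only *Tuft1* reached 0.95. These correlations are descriptions over 7 points that share their libraries.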

How the data were processed

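RNA of crypt and villus epithelium was sequenced in 2 libraries per genotype (Ctrl, Gli1-Ptgs cKO) and tissue. STAR alignment to mm10 and DESeq2 normalization of gene counts were done by the authors; the deposited signal is a gene count divided by the library's size factor, here called a normalized count. The deposited tables also hold the authors' mean, log2 fold change, its standard error, statistic, p-value and adjusted p-value for each gene, which were not used. Counter, strand setting and annotation are not given in the sources used here, so reads shared with overlapping or antisense genes are uncertain, and RNA and library kits in the labels differ from those in the study's methods. Columns of other samples numbered 0.

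The step between values gave the reads behind them (100% whole within 0.01 reads). As the values are normalized, crypts were compared by limma-trend in limma 3.58.1 under R 4.3.3, using log2(value + 1), genes averaging at least 1 and no block. Transcript lengths came from GENCODE M21, matched by identifier for 11546 crypt and 12692 villus genes; the length correction subtracts a lowess curve (span 0.3) from each library. The tables leave out weakly expressed genes, the smallest mean being 48.4 normalized counts in crypts and 8.82 in villi. The 9 genes and all lists were chosen with earlier results of these data known. Named genes were these 9, from each other list any gene past the study's threshold and the extreme gene in each direction (crypt genotype, crypt against villus), the 3 genes most like the highest and the lowest of the 9 in villi against crypts, and *Ptgs1* and *Ptgs2*. Alternatives included a replicate block, edgeR 4.0.16, DESeq2 1.42.0, other scalings, pseudocounts, filters, the length correction and leaving out libraries. The fits were tested on simulated counts with 200 genes changed by more than the study's fold threshold and no trend with transcript length. At the spread estimated from the crypt libraries, limma-trend recovered 90.5% of them at an adjusted p under 0.05, with 8 false calls. That simulation cannot show how the fits behave under the length trend of cKO crypt replicate 1. Upstream sequences came from RefSeq on GRCm38.p6. Figures were drawn with matplotlib 3.10.9.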

Additional observations from a re-analysis of the deposited data

Results flagged for a closer look

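In 2 of the 9 genes the cKO libraries lay on opposite sides of Ctrl in crypts and villi. The share of all genes with this pattern was not counted. Both cKO crypts lay above Ctrl in 9.73% of all genes, and both cKO villi lay below it in 44.2%. The tenth of genes with the shortest transcripts had a median of 0.84 in cKO crypt replicate 1, and of -0.82 and -0.74 in the cKO villi. Both cKO crypts were above both Ctrl crypts and both cKO villi were below the Ctrl villus library for *Cldn3*, with log2 differences of 0.48 in crypts and -1.10 in villi, and for *Cldn23*, with 0.36 in crypts and -0.31 in villi. The difference between the tissues was not tested, since villi hold 1 distinct Ctrl library. For *Cldn3* the crypt side rests on cKO crypt replicate 1, as replicate 2 exceeded the higher Ctrl library by less than 1 normalized count. After the length correction *Cldn3* lay at 0.20 in crypts and -0.51 in villi, and *Cldn23* at 0.21 and 0.08.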

How the results depend on the processing

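The libraries share replicate numbers only. Same-numbered crypt libraries deviated together with a correlation of 0.247, and with the replicate block 78 crypt genes passed the study's threshold and 34 an adjusted p under 0.05, against 21 and 0; none of the 9 tight junction genes passed. DESeq2 gave 65 and 11. Scaling by library size called 18 crypt genes higher and 4 lower, against 20 and 1. Leaving out a crypt library gave 18 to 881 genes at the threshold, 0 to 1987 at the adjusted p, 0 to 1 of the 9 genes (*Tjp1*, without cKO replicate 2) and medians of the 9 genes from 0.048, without cKO replicate 1, to 0.48, without cKO replicate 2. Directions turned in *Cldn7* (-0.16 to 0.84), *Cldn15* (-0.099 to 0.48) and *Tjp1* (-1.40 to 0.36), where cKO replicate 1 decided them, and in *Ocln* (-0.10 to 0.14) and *F11r* (-0.091 to 0.078), which lay near 0; *Ocln* also turned under library size (-0.054). The cause was not tested.

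In villi library size gave 3217 genes higher and 296 lower past the fold, against 1705 and 1194, with 1 of the 9 genes higher, 0 lower and a median of 0.59; the length correction gave 635 genes and 0 of the 9 lower. Leaving out a cKO villus library gave 0 to 1 of the 9 genes higher and medians from 0.082 to 0.19. Between tissues the median of ratios gave 1928 genes higher and 1769 lower in villi, against 778 and 4296, with 1 of the 9 genes on each side and a median of 0.52. The length correction gave a median of -0.56, and Ctrl libraries alone 4 of the 9 genes lower, where 51.6% of all genes were. Of 283 values for single genes, 238 kept their call or stayed within replicate error, but some of these changed sign. Between tissues *Tjp1* went from -0.54 to 0.25 under the median of ratios, and *Cldn7* from 0.18 to -0.02 within cKO. *Cldn18* lost its call without Ctrl crypt replicate 1, and 35 values without a test moved by more than the replicate SD. The 9 genes had 241 reads or more in each library, and the number of libraries limits these comparisons.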

Other observations

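In villi, genes of other junction lists past the fold were named after their values were seen. Both cKO libraries were above Ctrl, by more than 1 in their mean on the log2 scale, for the plaque genes *Magi3* (1.35) and *Amot* (1.01), for *Vcl* (1.19) and *Ppl* (1.47) of adherens junctions and desmosomes, and for the kinases *Rock1* (1.38) and *Rock2* (1.28), which drive actomyosin contraction. The polarity gene *Pard6a* was lower (-1.21). Counts were low for *Ppl*, with 29.0 normalized counts in Ctrl and 111 and 60.8 in cKO. They were also low for *Pard6a*, with 75.3 in Ctrl and 24.5 and 41.5 in cKO. The genes that were higher have transcripts of at least 5267 bases, and *Pard6a* has one of 1273 bases. These are values against 1 Ctrl library with no test, and 13.4% of all villus genes were past the fold upward and 9.4% downward.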
